A study of Mus musculus with 12 samples.

Results

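The regions described here are H3K27ac peaks found both in embryonic stem cells of the mouse (mESCs) and in NIH3T3 cells. They were chosen by their H3K27ac peak calls alone, as the H3K27ac peaks of mESCs that overlap an H3K27ac peak of NIH3T3 cells by at least 1 bp. Of 19417 H3K27ac peaks in mESCs, 9152 met this rule, which is 47.1% of the list. They lay on 8489 of the 34241 H3K27ac peaks of NIH3T3 cells. The mESCs were of the ES-E14 line and NIH3T3 is an established fibroblast line from mouse embryos. Per the labels, both lines were grown in the same medium, which contained LIF, a cytokine that keeps mESCs undifferentiated. H3K27ac was pulled down with the same antibody in both lines, with 1 library per line. Peaks of Ctr9-GFP in both lines, and of NELFA-GFP and RNA polymerase II (RNAPII) phosphorylated at serine 5 (Ser5p) or serine 2 (Ser2p) in mESCs, were set beside them, again with 1 library each, as was RNA-seq of both lines. Ctr9-GFP was made by inserting GFP at the end of the Ctr9 gene and was studied in pools of GFP-positive cells, not in clones. The study made NELFA-GFP and RNAPII Ser5p libraries in mESCs that carry tagged NELFA.

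H3K27ac is acetylation of lysine 27 on histone H3. It marks the nucleosomes beside active promoters and active enhancers and is laid down mainly by the acetyltransferases p300 and CBP. Promoters of genes needed in every cell carry it in most cell types, while enhancers differ much more between cell types. Ctr9 is a scaffold subunit of the Paf1 complex, which travels with elongating RNAPII. NELFA belongs to NELF, which holds RNAPII shortly after initiation. RNAPII carries Ser5p mainly near starts and Ser2p mainly during elongation.

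The 2 RNA libraries fitted their labels. All 5 mESC markers examined (Pou5f1, Sox2, Nanog, Esrrb and Zfp42) had between 211 and 1402 TPM in mESCs and at most 0.511 TPM in NIH3T3 cells. All 7 fibroblast markers (Col1a1, Col1a2, Col5a1, Thy1, Pdgfrb, Prrx1 and Twist2) had between 39.6 and 1082 TPM in NIH3T3 cells and at most 5.69 TPM in mESCs. TPM is a transcript's share of the RNA library, scaled to a fixed total after correction for length. With 1 library per group, no difference below could be tested against replicates. Shares carry exact (Clopper-Pearson) and medians order-statistic intervals at the 95% level, which cover counting error or the spread over peaks within a library and not the spread between cultures. Peaks of the same gene or region are not independent, so such intervals may be too narrow.

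The strongest shared peaks are shown with their sequence. Shared peaks were ranked by the lower of their fold enrichments in the 2 lines, where fold enrichment is the pileup of fragments at the summit, the highest point of a peak, over the local background. For 4 of the leading peaks at protein-coding gene starts, the RefSeq promoter that each peak overlaps is given, from 250 bases before to 50 bases after the start, 5′ to 3′ along the gene (GRCm38.p6, which is mm10). Capitals mark matches, on either strand, to any of 10 short motifs that are set out with their frequencies further on. These lines show how different the promoters that strong shared peaks overlap are, from 6 CpG dinucleotides in 300 bases at Zfp868 to 44 at Calm3. The promoter of Slc35b1 lies wholly within its peak, and the others only in part. That of Calm3 meets its peak (chr7:16924260-16924706) only at the edge, so its CpG count describes the promoter and not the peak.
Slc35b1 (chr11:95384606-95384905, plus strand): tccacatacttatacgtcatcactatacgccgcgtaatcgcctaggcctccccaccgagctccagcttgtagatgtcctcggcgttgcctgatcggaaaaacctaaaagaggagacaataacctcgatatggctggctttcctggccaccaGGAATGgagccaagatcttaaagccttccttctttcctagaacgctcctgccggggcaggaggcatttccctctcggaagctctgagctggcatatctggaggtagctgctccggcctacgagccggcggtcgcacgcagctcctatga
Zfp868 (chr8:69625499-69625798, minus strand): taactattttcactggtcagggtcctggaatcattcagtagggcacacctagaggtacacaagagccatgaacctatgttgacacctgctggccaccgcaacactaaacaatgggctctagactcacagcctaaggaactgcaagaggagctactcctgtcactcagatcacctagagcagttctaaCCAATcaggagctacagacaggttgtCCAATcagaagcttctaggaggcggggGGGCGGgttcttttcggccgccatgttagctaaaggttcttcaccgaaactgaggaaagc
N6amt1 (chr16:87353935-87354234, plus strand): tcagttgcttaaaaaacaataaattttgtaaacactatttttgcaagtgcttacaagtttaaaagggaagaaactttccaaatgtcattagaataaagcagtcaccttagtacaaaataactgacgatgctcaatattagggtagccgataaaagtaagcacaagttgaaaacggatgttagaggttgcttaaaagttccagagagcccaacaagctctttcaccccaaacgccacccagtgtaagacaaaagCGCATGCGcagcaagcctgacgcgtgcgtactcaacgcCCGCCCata
Calm3 (chr7:16923983-16924282, minus strand): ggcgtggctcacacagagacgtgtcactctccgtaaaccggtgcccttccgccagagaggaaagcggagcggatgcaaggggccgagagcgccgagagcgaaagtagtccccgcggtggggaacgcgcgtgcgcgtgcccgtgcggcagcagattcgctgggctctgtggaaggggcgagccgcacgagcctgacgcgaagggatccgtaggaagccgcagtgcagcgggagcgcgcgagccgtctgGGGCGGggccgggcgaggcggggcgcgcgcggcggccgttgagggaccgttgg

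For 4 of the leading peaks more than 5 kb from any protein-coding gene start, the mESC summit is given with 100 bases on each side, on the plus strand, with the same use of capitals. Rnu2-10 and Rnu3b4 are genes of a small nuclear and a small nucleolar RNA whose starts lie 124 and 132 bp from the summit, and the summit at Pfdn4 lies 105 bp from another transcript start of that gene. The windows at Rnu2-10 and Pfdn4 hold none of the 10 motifs.
Upstream of Pum2 (chr12:8640841-8641041): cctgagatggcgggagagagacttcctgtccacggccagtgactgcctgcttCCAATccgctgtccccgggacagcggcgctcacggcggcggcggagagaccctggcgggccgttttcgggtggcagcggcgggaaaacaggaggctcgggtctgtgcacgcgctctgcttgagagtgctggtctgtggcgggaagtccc
Rnu2-10 (chr11:101658014-101658214): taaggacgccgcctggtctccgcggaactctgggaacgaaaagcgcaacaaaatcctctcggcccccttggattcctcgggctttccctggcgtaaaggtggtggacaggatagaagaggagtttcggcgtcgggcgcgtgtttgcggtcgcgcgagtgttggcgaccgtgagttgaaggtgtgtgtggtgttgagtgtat
Pfdn4 (chr2:170511240-170511440): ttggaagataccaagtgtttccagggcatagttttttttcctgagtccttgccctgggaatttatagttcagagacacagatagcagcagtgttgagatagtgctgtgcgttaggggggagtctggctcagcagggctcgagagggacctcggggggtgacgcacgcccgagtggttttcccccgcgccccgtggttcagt
Rnu3b4 (chr11:87462054-87462254): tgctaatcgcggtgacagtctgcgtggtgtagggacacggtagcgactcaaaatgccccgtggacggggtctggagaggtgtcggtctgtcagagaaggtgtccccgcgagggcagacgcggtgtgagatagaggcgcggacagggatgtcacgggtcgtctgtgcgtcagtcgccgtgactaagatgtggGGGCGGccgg

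Shared H3K27ac peaks lay at promoters. The summit lay at a protein-coding gene start, meaning at most 1 kb from it, for 7185 of 9152 shared peaks (78.5%, interval 77.7 to 79.3%), against 40.0% of all H3K27ac peaks of mESCs. The share was 5.67% (5.23 to 6.13%) of the 10265 peaks found in mESCs only and 22.1% (21.6 to 22.6%) of the 25752 found in NIH3T3 cells only. A further 13.9% of the shared peaks lay in the body of a protein-coding gene and 7.56% outside such genes. More than 5 kb from any protein-coding gene start lay 14.5% of the shared peaks, 86.7% of the mESC-only peaks and 64.7% of the NIH3T3-only peaks. The median distance to the nearest start was 291 bp for shared peaks (285 to 296 bp), 36590 bp for mESC-only peaks and 16223 bp for NIH3T3-only peaks.

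Shared and mESC-only peaks of like strength also differed in position. All mESC peaks were divided into 5 equal groups by fold enrichment, a split chosen after the data were seen. Of the weakest group, 60.6% of the shared peaks (57.8 to 63.3%) and 6.18% of the mESC-only peaks (5.30 to 7.17%) lay at gene starts. Of the strongest group these shares were 86.3% of 3046 peaks (85.0 to 87.5%) and 6.57% of 837 peaks (4.99 to 8.47%).

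Many shared peaks that counted as away from gene starts lay at other annotated starts. Of these 1967 peaks, 856 (43.5%) were within 1 kb of another transcript start of a protein-coding gene and 256 (13.0%) within 1 kb of the start of a gene of another kind, such as a long or small non-coding RNA or a pseudogene. That left 855 shared peaks with no annotated start within 1 kb. They include 8 shared peaks outside the assembled chromosomes, where no starts were read. A distance to a start was available for 10161 of the 10265 mESC-only peaks and 25733 of the 25752 NIH3T3-only peaks. In all, 90.7% of shared peaks, 13.7% of mESC-only peaks and 33.9% of NIH3T3-only peaks lay within 1 kb of some annotated start.

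**Figure D1:**
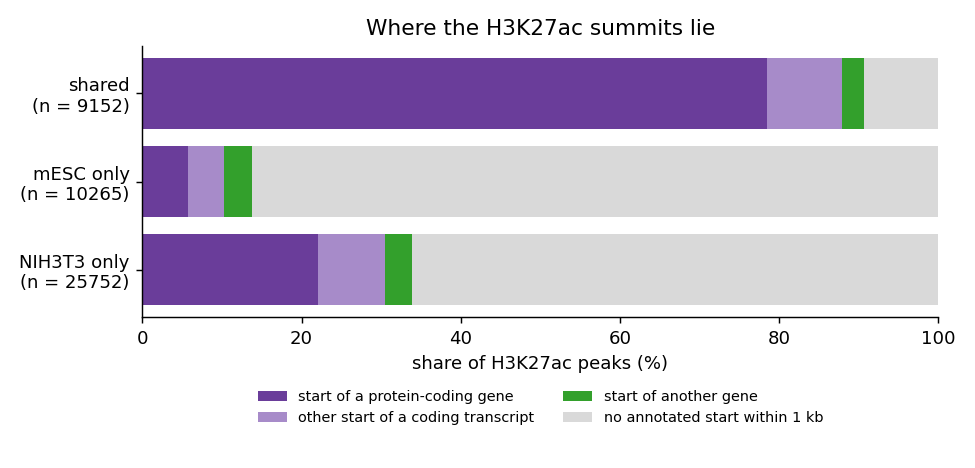
Share of H3K27ac peaks (x axis, %) by the annotated start that lies within 1 kb of the summit, for shared peaks (mESC coordinates), peaks of mESCs only and peaks of NIH3T3 cells only. The grey part, with no annotated start, is small for shared peaks (855 of 9152) and makes up most of the other bars. It includes the few peaks outside the assembled chromosomes, where no starts were read.

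Around gene starts the shared peaks formed 2 humps with a gap between them. Oriented along the gene, the fullest 100-bp bin was 100 to 200 bp downstream, with 1957 mESC summits, and the fullest upstream bin was 300 to 200 bp before the start, with 464. The 200 bp centred on the start held 473 mESC summits. NIH3T3 summits of the same regions gave the same bins, with 1804 downstream and 400 upstream. At gene starts 74.5% of the shared mESC summits were downstream (73.5 to 75.5%), as were 60.3% of the mESC-only summits (56.2 to 64.3%) and 59.0% of the NIH3T3-only summits (57.7 to 60.3%). Of the 6607 protein-coding genes with a shared peak at the start, 1508 had such peaks on both sides, 4068 only downstream and 1031 only upstream.

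**Figure D2:**
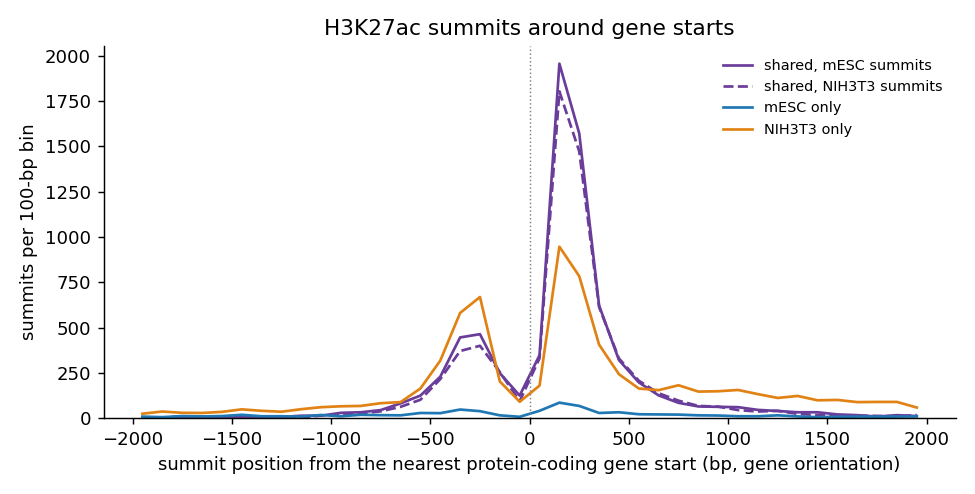
Number of H3K27ac summits per 100-bp bin (y axis) against distance from the nearest protein-coding gene start in bp, positive downstream (x axis). The shared summits of mESCs (solid) and NIH3T3 cells (dashed) follow each other, with most summits 100 to 300 bp downstream and few at the start itself.

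H3K27ac values chose these regions, so the levels that follow are a description. The median fold enrichment of the shared peaks in mESCs was 4.73 (4.66 to 4.79), with a range from 1.60 to 25.1. It was 3.61 (3.59 to 3.62) for mESC-only peaks. On the NIH3T3 side the shared peaks had a median of 14.8 (14.5 to 15.0) and the NIH3T3-only peaks one of 5.73 (5.69 to 5.79). The fold was higher in NIH3T3 cells than in mESCs at 8885 of 9152 shared peaks (97.1%), and the median ratio of mESC to NIH3T3 fold was 0.328 (0.324 to 0.333). Line and library cannot be told apart here, since each line had 1 H3K27ac library and the NIH3T3 list was also the longer.

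Shared peaks made up a growing part of each list with strength. When each list was divided into 5 equal groups by fold, 31.7% of the weakest and 78.4% of the strongest group of mESC peaks were shared. Of the NIH3T3 peaks the shares were 4.66% and 68.7%. Across the shared peaks the 2 folds had a Spearman correlation of 0.385 over 9152 peaks, which is a description of 2 libraries. It was 0.394 at gene starts (7185 peaks) and 0.264 away from them (1967 peaks).

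The mESC peaks were narrow and mostly lay inside wider NIH3T3 peaks. The median width was 467 bp (460 to 473 bp) in mESCs, against 371 bp (365 to 376 bp) for mESC-only peaks. The NIH3T3 peaks that met them had a median width of 892 bp (879 to 908 bp), against 400 bp (395 to 405 bp) for NIH3T3-only peaks. Of the shared peaks 69.0% lay wholly within NIH3T3 peaks, and 96.8% had more than 50% of their bases covered. The summits of the 2 lines were a median of 48 bp apart (47 to 50 bp), and 91.8% were within 500 bp. A shared peak met 1 NIH3T3 peak in 97.5% of cases, and 847 NIH3T3 peaks met 2 or more mESC peaks.

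Few regions lay close to the 1-bp limit of the rule, though only 4529 were left when at least 50% of each peak had to be covered. Only 5 shared peaks overlapped by 10 bp or fewer and 31 by 50 bp or fewer. Just inside the limit were a peak near Spry4 with 1 shared base (fold enrichment 2.59 in mESCs and 11.1 in NIH3T3 cells) and one near Acvr1b with 4 (5.30 and 5.34). Just outside were a peak near Fem1b 3 bp from an NIH3T3 peak (2.93 and 16.4) and one near Frrs1 5 bp from one (2.98 and 19.6). Of the mESC-only peaks 60 had an NIH3T3 peak within 100 bp and 508 within 1000 bp.

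**Figure D3:**
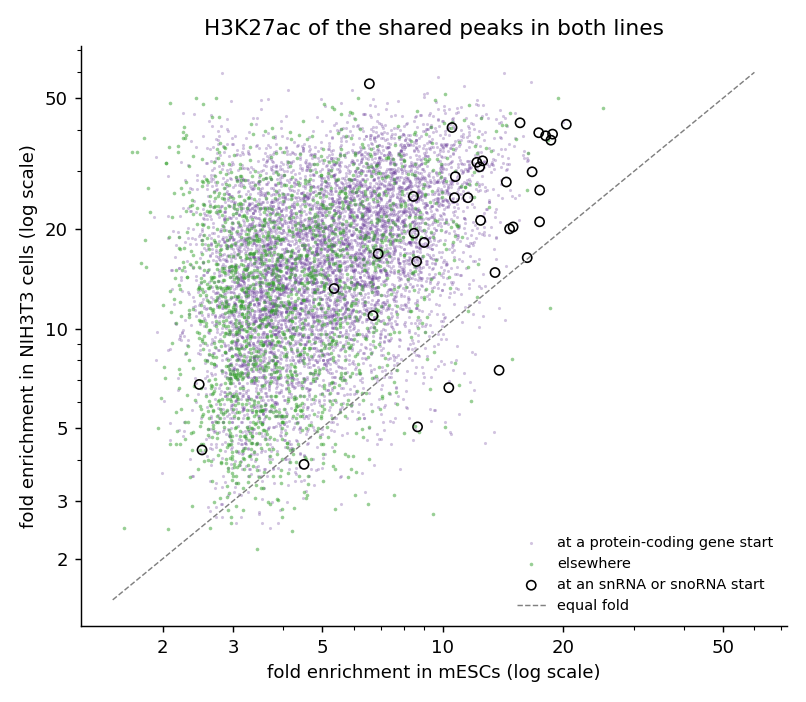
Fold enrichment of each of the 9152 shared peaks in mESCs (x axis) and of the strongest NIH3T3 peak it overlaps (y axis), both on log scales. Most points lie above the dashed line of equal fold, and open circles, which are peaks at snRNA and snoRNA gene starts away from protein-coding starts, are mostly at the upper right.

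The leading shared peaks at protein-coding gene starts were those of Wdr45 and Slc35b1. Wdr45 encodes a WD-repeat protein of autophagy, and its peak (chrX:7714241-7714647, in an exon) had folds of 20.0 (mESCs) and 42.3 (NIH3T3 cells). Slc35b1 encodes a nucleotide sugar transporter of the endoplasmic reticulum, and its peak (chr11:95384584-95385137, in an exon) had folds of 16.6 and 56.1. Peaks at N6amt1, for a methyltransferase, and Calm3, for calmodulin, had mESC folds of 16.2 and 16.0, and Calm3 had one of 34.6 in NIH3T3 cells. The other leading peaks were at Eapp, Gm20422 together with Zfp866, Zfp868, Ddx59, Tcp11l2 and 9130023H24Rik, with folds of 15.9 to 16.3 in mESCs and 32.2 to 38.4 in NIH3T3 cells.

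None of these 10 peaks met a Ctr9 peak of either line. NELFA peaks lay on 4 of them (Eapp, Gm20422, Ddx59 and 9130023H24Rik) and RNAPII Ser5p peaks on 4 (Eapp, Gm20422, Ddx59 and N6amt1). Over all shared peaks at gene starts, 65.4% had Ctr9 in neither line, 20.2% had NELFA and 20.8% Ser5p. In the strongest of 5 equal groups of shared peaks by mESC fold, 30.5% had NELFA and 33.2% Ser5p. Counts among 10 peaks chosen by fold are a description only. The genes of the 10 peaks ranged from Calm3, with 98.9 TPM in mESCs and 127 in NIH3T3 cells, down to Gm20422, listed at 0 in both. The peak at Eapp had the highest Ser5p fold of the 10 (29.0) and also lay 112 bp from the start of an snRNA gene, Gm22513.

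Shared peaks of high fold stood at genes of small nuclear RNAs (snRNAs) and at some genes of small nucleolar RNAs (snoRNAs). These RNAs work in splicing and in the maturation of ribosomal RNA, and many of their genes have RNAPII promoters of their own. This group was singled out after its values were seen. Away from protein-coding starts, 23 shared peaks lay within 1 kb of an snRNA gene start and 13 within 1 kb of an snoRNA gene start. The snRNA peaks had a median fold of 12.4 in mESCs (lowest 6.56, highest 20.3) and 26.3 in NIH3T3 cells (lowest 5.03, highest 55.4). The snoRNA peaks had medians of 8.48 in mESCs (lowest 2.47, highest 18.8) and 16.9 in NIH3T3 cells (lowest 3.87, highest 38.9). Over all shared peaks the medians were 4.73 and 15.6, with the strongest NIH3T3 peak taken for each. The median width in mESCs was 384 bp for the snRNA peaks and 416 bp for the snoRNA peaks.

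NELFA and RNAPII Ser5p peaks each lay on 18 of the 23 snRNA peaks, against 18.3% and 21.4% of all shared peaks. The peaks at Gm24407 and Gm24265 had the same folds for NELFA (17.5) and for Ser5p (30.1). The snRNA counts and medians may therefore hold the same NELFA or Ser5p peak more than once. Where present, NELFA had a median fold of 17.3 at snRNA peaks and Ser5p one of 21.7, against 5.13 and 5.09 over all shared peaks that had them. Ctr9 peaks of mESCs lay on 8 of the 23 snRNA peaks and those of NIH3T3 cells on 12. These Ctr9 lists met 38.3% and 34.0% of the 256 shared peaks at starts of genes of another kind. Rnu2-10, a gene of the U2 snRNA, had H3K27ac folds of 20.3 in mESCs and 41.7 in NIH3T3 cells, with folds of 20.4 for NELFA, 22.7 for Ser5p and 5.12 for NIH3T3 Ctr9. Rnu11, of the minor spliceosome, had H3K27ac folds of 12.6 and 32.3, and Rnu5g, of the U5 snRNA, folds of 12.4 and 31.0.

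At snoRNA genes other than those of U3 and U8, the highest mESC fold was 8.98 (Snora26). Peaks at 4 genes of the U3 snoRNA (Rnu3b1 to Rnu3b4) had folds of 17.4 to 18.8 in mESCs and 21.1 to 38.9 in NIH3T3 cells. All 4 met NELFA, Ser5p and NIH3T3 Ctr9 peaks, and none met a Ctr9 peak of mESCs. Snord118, of the U8 snoRNA, had nearly equal folds of 16.3 and 16.4. These families are repeated in the genome. The peaks at Rnu3b4 and Rnu3b1 share a run of 350 identical bases, in peaks of 401 and 416 bp, so the reads of such copies cannot be assigned with certainty.

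Shared peaks with no annotated start were a small group. These 855 peaks included the strongest shared peak of all by this ranking, 33193 bp upstream of Pum2 and between genes, where the folds were 25.1 (mESCs) and 46.7 (NIH3T3 cells) and no peak of the other 5 lists was found. The peak near Was on chromosome X, 323 bp from the start of the non-coding gene Gm6787 and so not in this group, had folds of 18.3 and 37.3 and no such peak either. A broad one in an intron of Kirrel, which encodes a cell adhesion molecule, covered 2341 shared bases and had folds of 4.95 and 29.3, with Ctr9 folds of 8.96 in mESCs and 4.52 in NIH3T3 cells.

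The widest differences in fold were towards NIH3T3 cells, where nearly all shared peaks had the higher fold. The 3 peaks with the highest ratio of mESC to NIH3T3 fold, between 2.78 and 3.44, were at the non-coding gene Gm6712 (9.44 against 2.74), at Dcaf15, a substrate receptor of a ubiquitin ligase (12.7 against 4.49), and at Phf10, a subunit of a chromatin remodelling complex (13.4 against 4.84). The 3 with the lowest ratio, between 0.0428 and 0.0473, were at Rnf4 (2.08 against 48.6), near Stam2 (2.81 against 59.6) and in an exon of Rpl3 (1.79 against 37.9). The peaks at Rnf4, Stam2 and Rpl3 were 200 to 280 bp wide in mESCs and lay in NIH3T3 peaks of 1706 to 2288 bp.

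Ctr9 peaks lay on about as many shared H3K27ac peaks in either line. Ctr9 of mESCs met 2331 shared peaks (25.5%, 24.6 to 26.4%), against 23.1% of all mESC H3K27ac peaks, and 20.9% (20.1 to 21.7%) of the mESC-only peaks. Ctr9 of NIH3T3 cells met 2333 (25.5%, 24.6 to 26.4%), against 12.8% of all mESC H3K27ac peaks, 1.47% (1.25 to 1.72%) of the mESC-only peaks and, in its own line, 7.68% (7.35 to 8.01%) of the NIH3T3-only peaks. Both lines had Ctr9 at 1264 shared peaks (13.8%), mESCs alone at 1067 (11.7%), NIH3T3 cells alone at 1069 (11.7%) and neither at 5752 (62.8%). Where a Ctr9 peak was present its median fold was 5.07 in mESCs (4.92 to 5.23) and 5.20 in NIH3T3 cells (5.09 to 5.37).

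The position of a shared peak went with its Ctr9 in mESCs. Ctr9 of mESCs met 22.3% (21.4 to 23.3%) of the shared peaks at gene starts and 37.0% (34.9 to 39.2%) of those farther away. The corresponding shares of mESC-only peaks were 24.4% (142 of 582) and 20.7% (19.9 to 21.5%). Ctr9 of NIH3T3 cells met 25.3% (24.3 to 26.4%) of the shared peaks at starts and 26.1% (24.2 to 28.1%) of the others. Even the 855 shared peaks with no annotated start met Ctr9 of mESCs in 308 cases (32.8 to 39.3%), where 19.7% (18.9 to 20.5%) of the like mESC-only peaks did. At other coding transcript starts the shares were alike, with 37.6% of 856 shared and 37.4% of 473 mESC-only peaks.

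NELFA and RNAPII peaks of mESCs were found at more shared than unshared peaks. NELFA met 18.3% (17.5 to 19.1%) of the shared peaks, 9.68% of all mESC H3K27ac peaks and 2.00% (1.74 to 2.29%) of the mESC-only peaks. Ser5p met 21.4% (20.6 to 22.2%), 15.0% and 9.28% (8.73 to 9.86%). RNAPII Ser2p met 3.46% (3.10 to 3.86%), 2.25% and 1.16% (0.961 to 1.39%). At gene starts alone the shares for shared and mESC-only peaks were 20.2% (19.3 to 21.1%) and 8.93% (6.74 to 11.6%) for NELFA, while for Ser5p the intervals overlapped (20.8%, 19.9 to 21.8%, and 18.9%, 15.8 to 22.3%).

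The 5 lists differed in how many of their own peaks met shared H3K27ac. Of 1980 NELFA peaks, 74.6% met a shared and 9.85% an mESC-only H3K27ac peak, and of 4490 Ser5p peaks 40.4% and 19.8% did. A shared peak was met by 17.8% of 1675 Ser2p peaks, 10.5% of 22016 Ctr9 peaks of NIH3T3 cells and 5.02% of 44748 Ctr9 peaks of mESCs.

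Within the shared peaks the lists overlapped each other to different degrees. Of 1674 shared peaks with NELFA 62.7% also had Ser5p. Ctr9 of mESCs was at 43.1% of the shared peaks with NELFA and 21.5% of those without, and at 64.0% of those with Ser5p and 15.0% of those without. It was at 314 of the 317 shared peaks with Ser2p. All 5 lists met at 120 shared peaks (1.31%) and at 1 mESC-only peak. At least 1 of the 4 mESC lists lay on 39.1% (38.1 to 40.2%) of the shared peaks, and the others had none.

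NELFA, Ser5p and NIH3T3 Ctr9 were found at more of the strongest than of the weakest shared peaks, while mESC Ctr9 and Ser2p were not. From the weakest to the strongest of 5 equal groups of shared peaks by mESC fold, NELFA went from 8.90% to 30.5% and Ser5p from 16.4% to 33.2%, and Ctr9 of NIH3T3 cells from 20.0% to 38.4%. Ctr9 of mESCs was at 28.7% of the weakest group, 20.2% of the next and 27.7% of the strongest, and Ser2p at 3.88% of the weakest and 3.11% of the strongest.

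**Figure D4:**
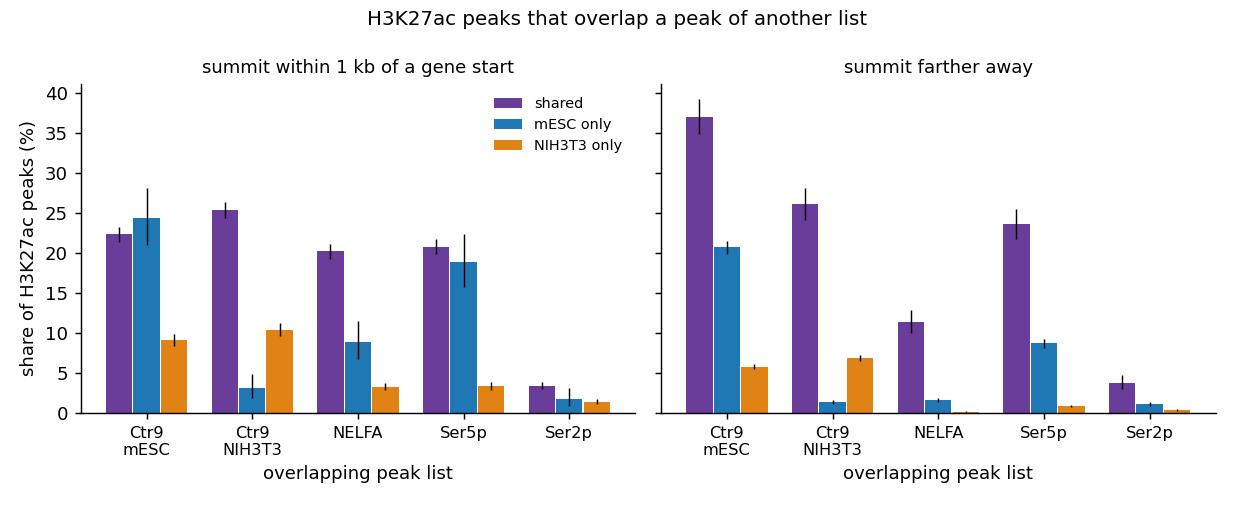
Share of H3K27ac peaks (y axis, %) that overlap a peak of each of 5 other lists by at least 1 bp, for summits within 1 kb of a protein-coding gene start (left) and farther away (right). Bars are 1 library each, with exact 95% intervals for counting error. Shared peaks are highest in every pair of the right panel, and at starts the shared and mESC-only bars overlap in their intervals for mESC Ctr9, Ser5p and Ser2p.

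The shared peaks that met all 5 lists were at genes of several kinds. By the lower of the 2 folds, the leading ones with all 5 lists were 2 peaks at the snRNA genes Gm24497 and Gm25939 in the non-coding gene D230017M19Rik, then peaks at Wdr4, Hmgn2 and Paip2. Hmgn2 encodes a nucleosome-binding protein, and its peak had folds of 12.1 and 33.6 for H3K27ac, 21.7 and 6.36 for Ctr9, 7.02 for NELFA, 11.7 for Ser5p and 10.7 for Ser2p. Its mRNA was at 105 TPM in mESCs and 113 TPM in NIH3T3 cells. Paip2 encodes an inhibitor of poly(A)-binding protein, and its peak had Ctr9 folds of 24.9 in mESCs and 20.6 in NIH3T3 cells.

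The most shared bases were at Brd2, an acetyl-lysine reader, where 2935 bases were shared in a peak whose nearest gene start was that of H2-DMa. The H3K27ac folds there were 3.77 and 38.3 and the Ctr9 folds 21.1 and 15.1. Next were the non-coding gene 1110038B12Rik (2449 bases), Kirrel, Rps28 of the small ribosomal subunit (2126 bases) and Ppp1r10, a phosphatase subunit (2095 bases). Each of these 5 peaks had Ctr9 in both lines.

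Genes with a shared peak at the start were active in both lines. There were 6607 such genes, which is 30.1% of 21938 protein-coding genes, and 6601 of them were found in the RNA-seq tables. Of these 94.3% had at least 1 TPM in both lines, against 44.0% of all genes. The share was 29.8% where only an mESC peak and 68.2% where only an NIH3T3 peak stood at the start. The median level was 19.6 TPM in mESCs (18.7 to 20.2 TPM) and 16.7 TPM in NIH3T3 cells (16.1 to 17.4 TPM).

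Most of these genes had mRNA levels within 2-fold in the 2 lines. At 74.0% (73.0 to 75.1%) of these genes the levels were within 2-fold on the log2(TPM + 1) scale, against 75.2% of all protein-coding genes, many of which are silent in both. Among genes with at least 1 TPM in either line, 6382 had a shared start peak, and 73.2% (72.1 to 74.2%) of these were within 2-fold. The share was 56.2% (55.3 to 57.0%) of 12379 in all, 14.5% of 310 with only an mESC peak and 45.1% of 2729 with only an NIH3T3 peak. These groups also differ in expression, as 97.6% of the 6382 and 77.8% of the 12379 had at least 1 TPM in both lines. What this adds to the difference was not tested. More than 2-fold higher in mESCs were 16.8% of the genes with a shared peak, against 13.5% of all genes, and more than 2-fold higher in NIH3T3 cells were 9.17%, against 11.3%. In cell populations, fewer cells that express a gene and less RNA per cell cannot be told apart.

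Ctr9 at the shared start peak went with the mRNA level. With Ctr9 in both lines (967 genes) the median was 39.3 TPM in mESCs and 32.5 TPM in NIH3T3 cells, and with Ctr9 in neither (4153 genes) 16.0 and 14.1 TPM. With Ctr9 in mESCs alone (593 genes) 183 genes (30.9%) were more than 2-fold higher in mESCs and 32 in NIH3T3 cells. With Ctr9 in NIH3T3 cells alone (888 genes) these numbers were 87 (9.80%) and 128 (14.4%). The median log2 ratio of mESC to NIH3T3 level was 0.53 in the former group and -0.05 in the latter.

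The ratio of H3K27ac folds at a shared start went with the mRNA ratio only loosely. Over 6382 genes with at least 1 TPM in either line, the ratio of H3K27ac fold and the ratio of mRNA between the lines had a Spearman correlation of 0.189. In 5 equal groups of genes by the mESC to NIH3T3 ratio of H3K27ac fold, the median log2 mRNA ratio was 0.00 in the lowest and 0.44 in the highest. These are descriptions of 4 libraries over genes that are not independent.

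A shared peak at the start did not go with equal mRNA at some genes. A gene counted here when a shared summit lay within 1 kb of its outermost start. Some of these peaks may lie nearer the start of another gene or away from the main promoter. The largest differences towards mESCs were at Epop, which encodes a partner of Polycomb and elongin (263 against 1.04 TPM), Sept1, a septin (218 against 1.90 TPM), Hist1h2ah (58.6 against 0 TPM), Hsf2bp, a meiotic protein (70.0 against 0.289 TPM), and Pmel, a melanosome protein (42.1 against 0.151 TPM). Epop had Ctr9 at its shared peak in mESCs (fold 16.6) and none in NIH3T3 cells. Towards NIH3T3 cells they were at Ftl1, ferritin light chain (4.35 against 1965 TPM), Man2a1, a mannosidase (7.57 against 231 TPM), Cdkn2c, a CDK inhibitor (0.851 against 43.9 TPM), Clec2d (0.102 against 25.3 TPM) and Socs5, a cytokine signalling inhibitor (3.58 against 98.7 TPM).

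Ftl1 is uncertain, since its reads are shared with copies. In mESCs 2 transcripts of its copy Ftl1-ps1 had 2335 and 2248 TPM, and the Ftl1 peak carried Ctr9 in both lines, with folds of 43.0 and 39.1. Histone genes such as Hist1h2ah also have near-identical copies, between which reads may be split.

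Genes of basic cell functions had shared peaks at most of their starts. A shared peak stood at the start of 23 of 26 genes of pausing and elongation factors (88.5%), 69 of 80 of cytosolic ribosomal proteins (86.2%), 43 of 50 of RNAPII and general transcription factors (86.0%), 46 of 54 of splicing factors (85.2%), 75 of 94 of respiratory chain subunits (79.8%), 27 of 34 of cell cycle and replication (79.4%), 50 of 68 of translation factors (73.5%), 27 of 39 of proteasome subunits (69.2%) and 24 of 35 of chaperones (68.6%). The share over all protein-coding genes was 30.1%, but many of these are silent in both lines. Of the 9628 genes with at least 1 TPM in both lines, 6228 had a shared start peak. How far these lists differ from other expressed genes was not tested. Lower shares were found for glycolysis enzymes (10 of 18), replication-dependent histones (37 of 67) and cytoskeleton genes (15 of 31).

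Ctr9 lay at nearly all shared starts of ribosomal protein and histone genes. Of the 69 ribosomal protein genes with a shared start peak 67 met Ctr9 in mESCs and 67 in NIH3T3 cells, and 65 of the genes had mRNA within 2-fold. The median was 1690 TPM in mESCs and 1708 TPM in NIH3T3 cells. Rpl41 had H3K27ac folds of 8.56 and 24.3 and 3582 and 6277 TPM. All 37 histone genes with one met Ctr9 in mESCs and 35 in NIH3T3 cells. Rplp1 had a fold of 6.81 in mESCs and Ctr9 folds of 19.4 and 23.8.

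Proteasome genes had H3K27ac folds like those of ribosomal protein genes and no mESC Ctr9 peak at their shared start peaks. Ctr9 elsewhere along these genes was not examined. None of the 27 with a shared start peak met Ctr9 in mESCs and 8 did in NIH3T3 cells. Over all shared peaks at gene starts these shares were 22.3% and 25.3%. Their median folds were 6.58 in mESCs and 23.6 in NIH3T3 cells, against 6.95 and 22.9 for ribosomal proteins, and their medians of mRNA were 146 and 138 TPM. Psma1, of the core particle, had H3K27ac folds of 5.68 and 16.7 and 206 and 190 TPM. Of the respiratory chain genes 14 of 75 met mESC Ctr9 and 18 met NIH3T3 Ctr9, both near those shares.

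The genes named from each list are those with the highest mRNA in both lines, so their levels are a description. Ppia, for cyclophilin A, had H3K27ac folds of 7.28 and 27.5, Ctr9 folds of 33.5 and 16.4 and 3727 and 3083 TPM. Hsp90ab1, a cytosolic chaperone, had folds of 8.18 and 16.2, Ctr9 folds of 30.1 and 22.7 and 3921 and 2273 TPM. Actb, for beta-actin, had folds of 8.57 and 27.9 and Ctr9 folds of 33.1 and 15.3. Eef1a1, a translation elongation factor with 10124 and 8791 TPM, had folds of only 2.81 and 7.34 and none of the other 5 lists at its shared peak. It was scored only at the outermost start of its record (chr9:78478449-78489151, minus strand). Peaks at any other transcript start of Eef1a1 were not counted, so these values may not describe its main promoter.

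**Figure D5:**
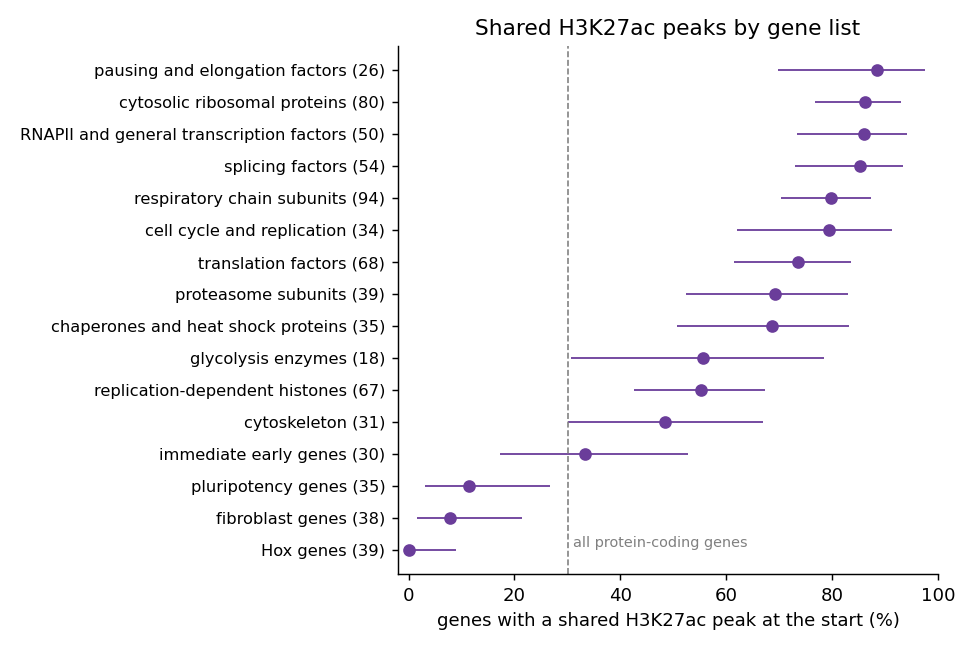
Share of the genes of each list with a shared H3K27ac peak within 1 kb of the start (x axis, %), with exact 95% intervals and the number of genes in parentheses. Lists of basic cell functions lie to the right of the dashed line for all protein-coding genes (30.1%), and pluripotency, fibroblast and Hox genes lie to its left. Of the 21905 protein-coding genes with RNA values, 43.5% had less than 1 TPM in both cell lines.

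Genes of cell identity had few shared peaks. A shared peak stood at 4 of 35 pluripotency genes, 3 of 38 fibroblast genes and 0 of 39 Hox genes, where the interval reaches 9.03%. Among the other pluripotency genes, 11 had an unshared mESC peak, 2 an NIH3T3 peak and 18 no H3K27ac peak within 1 kb. Pou5f1, Nanog and Esrrb were among the 18. Each gene was scored only at the outermost start of its annotated record, so a peak at another transcript start was not counted. At the other fibroblast genes, 29 had an NIH3T3 peak only and 6 none. Of the Hox genes 12 had an NIH3T3 peak only.

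The 4 pluripotency genes with a shared peak were Klf4, Klf5, Tbx3 and Mycn, which are also expressed outside pluripotent cells. Klf4 had H3K27ac folds of 5.84 and 23.3, with 89.7 and 26.3 TPM. Klf5 had folds of 4.32 and 13.0, with 310 and 14.2 TPM and Ctr9 folds of 18.5 and 3.48. The 3 fibroblast genes were Fn1, Vim and Ccn2. Vim, for the intermediate filament vimentin, had folds of 2.81 and 23.5 in peaks 321 and 4705 bp wide, with 162 and 1829 TPM.

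Of 30 immediate early genes 10 had a shared start peak (33.3%, 17.3 to 52.8%), which is near the 30.1% of all protein-coding genes. A further 13 had an NIH3T3 peak only, as had 2980 of all 21905 genes, and 7 had none. Mcl1, a survival factor, had folds of 4.96 and 35.3 and 186 and 59.4 TPM. Nfkbia, the NF-kappaB inhibitor, had folds of 4.82 and 21.2. At the outermost start of their long records (chr17:26505590-26562128 and chr10:21882184-21999903), Dusp1 and Sgk1 had an NIH3T3 peak and no mESC peak. Peaks at other transcript starts of these 2 genes were not counted.

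Shared peaks had more CpG than mESC-only peaks, both at gene starts and farther away. In windows with 250 bases on each side of the mESC summit the median GC content was 62.7% (62.5 to 63.1%) for shared peaks and 49.7% (49.5 to 49.9%) for mESC-only peaks. The median ratio of observed to expected CpG was 0.796 and 0.306. Windows above 50% GC with a ratio above 0.6 made up 6855 of 9142 shared and 1322 of 10160 mESC-only windows. At gene starts these shares were 82.5% (81.6 to 83.4%) and 43.0% (38.9 to 47.1%), and farther away 47.5% (45.2 to 49.7%) and 11.2% (10.6 to 11.8%).

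Some short motifs were more common in these windows and others less. The motifs were the GC box GGGCGG, the CCAAT box CCAAT, an ETS motif CCGGAAG, an NRF1 core GCATGCG, a YY1 core AAGATGG, the CRE TGACGTCA, the AP-1 motif TGANTCA, an octamer ATGCAAAT, the E-box CACGTG and a TEAD core GGAATG, each searched on both strands. They do not contain each other, but their matches may overlap. At gene starts, the GC box was in 74.2% (73.2 to 75.2%) of shared windows and 53.6% (49.5 to 57.7%) of mESC-only windows, and the ETS motif in 24.0% and 10.1% (7.81 to 12.9%). Farther away the order was reversed for the ETS motif, with 12.66% of shared and 17.4% (16.6 to 18.1%) of mESC-only windows. The YY1 core was in 13.4% of shared and 10.1% of mESC-only windows at starts. Farther away it was in 10.01% and 26.3%. The AP-1 motif was in 6.21% of the shared windows at starts and 15.9% (14.3 to 17.6%) of those farther away. There, 28.7% of the NIH3T3-only windows and 13.96% (13.3 to 14.7%) of the mESC-only windows held the AP-1 motif.

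Whole promoters were searched in the same way. Of 32851 RefSeq promoters of 300 bases, 5735 met a shared peak. The GC box was in 70.0% of these and 35.7% of all promoters, the ETS motif in 26.4% and 8.86%, the NRF1 core in 8.54% and 3.58%, and the CRE in 4.24% and 1.79%. The CCAAT box was in 37.2% and 37.4%, and the TEAD core in 10.3% and 14.7%. The octamer was in 1.29% of the promoters with a shared peak and 1.74% of all, the E-box in 12.2% and 7.15%, the YY1 core in 10.1% and 6.34% and the AP-1 motif in 3.42% and 7.81%. Most of all promoters had no H3K27ac peak (23223). Promoters with an unshared peak were closer for some motifs, with the GC box in 63.0% of 3516 with an NIH3T3-only peak and 48.3% of 377 with an mESC-only peak, and the E-box in 8.45% and 13.3%. The ETS motif was in 12.8% and 12.5% of them. In the sequences above, Calm3 holds a GC box, N6amt1 a GC box and the NRF1 core, Slc35b1 a TEAD core and Zfp868 a GC box and a pair of CCAAT boxes. A match of letters is not a bound site.

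Shared peaks were rare in super enhancers, which are clusters of enhancers with dense coactivator binding. Of the 231 super enhancers of mESCs listed by the study, 200 met an H3K27ac peak of mESCs, 178 an mESC-only peak and 43 a shared peak (18.6%, 13.8 to 24.2%). Away from gene starts, a shared peak lay in 26. Of all shared peaks 69 (0.754%, 0.587 to 0.953%) lay in a super enhancer, as did 475 mESC-only peaks (4.63%, 4.23 to 5.05%).

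Of 20 fragments in the study's list of reporter constructs that compares NIH3T3 cells and mESCs, 5 met a shared peak. They were 3 of the 4 chosen for Ctr9 in both lines, 2 of the 8 chosen for Ctr9 in NIH3T3 cells and none of the 8 chosen without Ctr9. The fragment at the start of Gtf3c6, a subunit of transcription factor TFIIIC, had H3K27ac folds of 9.65 in mESCs and 36.7 in NIH3T3 cells, with Ctr9 folds of 5.39 and 6.51. The fragment near Vmn2r89 held no H3K27ac peak of either line. Nor did the remaining one chosen for Ctr9 in both lines, near Atf4, but its coordinates are written irregularly in the list and were read as a range, so this value is uncertain.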

How the data were processed

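Each of 9 ChIP-seq and RNA-seq libraries was made once, and 3 input libraries were not used here. The authors aligned ChIP-seq reads to mm10 with bowtie2 2.3.5.1, left out blacklisted regions and used macs2 2.2.6 with 0.01 as the limit on the q-value. In the deposited lists fold enrichment is a ratio to local background at the summit, whose −log10 p, −log10 q and offset are given, and the score is 10 times the −log10 q. ChIP-seq depth is unknown because the lists hold no read numbers, and a deeper library yields more and weaker peaks. Transcripts of GENCODE M19 were quantified by the authors with kallisto 0.46.1 as estimated counts and TPM. These deposited estimated counts sum to 26400407 in mESCs and 28849497 in NIH3T3 cells.

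Overlap meant at least 1 bp, and gene starts came from GENCODE M21 and promoters from RefSeq, both on GRCm38. A gene's start was the outermost end of its annotated record, so its other transcript starts did not count. A gene was counted as having a peak at its start also where the start of another gene lay nearer. Where a shared peak met several NIH3T3 peaks, the strongest was used. A gene took the TPM of its highest transcript, with a pseudocount of 1. Gene lists were matched by symbol. Super enhancer and fragment coordinates came from the study's tables. Named are the leading peaks by the lower fold (10 at starts, 6 more than 5 kb away), the 5 with the most shared bases, the 5 leading ones with all other lists, the 3 largest fold ratios each way, up to 3 genes a list with the highest lower TPM, and the 5 largest mRNA differences each way. Some genes that the study names as common were also examined. The members and lists were chosen with earlier results of these data known, and the snRNA group after its values were seen. Python 3.11.15, pandas 2.3.3, NumPy 2.4.6, SciPy 1.17.1 and pysam 0.24.0 were used, and the code was tested on simulated data.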

Additional observations from a re-analysis of the deposited data

How the results depend on the processing

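No paired analysis was possible because each library has no replicate, and no library could be left out. Of 40 alternatives, those not named here stayed within the 95% interval or, for counts, within 1.5 times. When at least 50% of each peak had to be covered, 4529 peaks were shared instead of 9152. With that rule the median fold was 5.47 in mESCs and 13.9 in NIH3T3 cells, and the shares were 80.9% at gene starts, 26.9% with Ctr9 of mESCs, 24.0% with Ctr9 of NIH3T3 cells, 20.2% with NELFA and 23.7% with Ser5p. With −log10 q of at least 5 the median folds were 4.86 and 15.2, the median width 478 bp, and the shares 79.4% at starts, 22.8% with Ctr9 of mESCs, 22.7% with Ctr9 of NIH3T3 cells, 16.6% with NELFA and 18.99% with Ser5p. Means were 5.38 and 16.6 for the folds and 541 bp for the width. With summits within 500 bp in place of overlap, Ctr9 of mESCs was at 19.1%, Ctr9 of NIH3T3 cells at 19.7% and NELFA at 19.9%. The share at gene starts was 69.2% within 500 bp, 82.5% within 2 kb and 87.9% with the starts of every coding transcript. A pseudocount of 0.1 left 69.8% of genes within 2-fold. The unknown ChIP-seq depth limits the lists: a region without a peak in the other line may lie below its threshold.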
